A study of Mus musculus with 6 samples.

Results

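Genes that serve folding, secretion and degradation in the endoplasmic reticulum (ER) were compared between control and Dhps knockout macrophages. The group is a list of 40 gene symbols, of which all 40 were among the 10551 genes of the deposited count table and all 40 passed the filter on low counts. By role, 16 encode chaperones and disulfide isomerases of the ER lumen, 3 the stress sensors and a transcription factor they act through, 14 the translocon and the signal peptidase, and 7 the ER-associated degradation machinery. Dhps encodes deoxyhypusine synthase, which begins the conversion of a lysine of the translation factor eIF5A to hypusine, and the title of the series links it to the pro-inflammatory phenotype. The 6 RNA-seq libraries were made from bone marrow-derived macrophages of C57BL/6J mice, 3 with the control genotype and 3 with a macrophage-specific Dhps deletion labelled Dhps_delta_Myel. The labels state no stimulus, age or Cre driver, and nothing on whether animals were pooled or each library had an animal or culture of its own. The p-values therefore measure the spread between these libraries, which may be technical.

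Proteins bound for secretion, the cell surface or the lysosome enter the ER through the Sec61 channel, lose their signal peptide, and fold with the help of chaperones and enzymes that form disulfide bonds. Chains that fail to fold are drawn back into the cytosol and degraded by the proteasome. Unfolded chains in the lumen activate the sensors IRE1, ATF6 and PERK, whose transcription factors raise the genes of the same machinery, a programme called the unfolded protein response. Macrophages carry a large secretory load, since cytokines, lysosomal enzymes and surface receptors all pass through this compartment.

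Many of these genes carry a shared regulatory element in their promoters, the ER stress response element, which is bound by NF-Y and ATF6. It is made of the half-sites CCAAT and CCACG with any 9 bases between them, and it was searched on both strands of the RefSeq promoter windows (GRCm38.p6, 250 bases before to 50 bases after each gene's start), where 32 of the 40 genes had an entry. Those windows held the element for 8 of 32 genes (25.0%). Among all genes with a window it was found in 37 of 27025, these 8 included, and in 0.119% of all 32851 windows. The stretches are shown because the values by library are described further on by whether a gene carries the element. They are read 5′ to 3′ on the strand of the gene, with the match in capitals. In Calr, in Creld2 and in the second Hsp90b1 stretch the element lies on the opposite strand, so that the capitals begin with its complement.
Hspa5, chr2:34772001-34772067, plus strand: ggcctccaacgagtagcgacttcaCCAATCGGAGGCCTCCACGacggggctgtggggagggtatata
Hsp90b1, chr10:86705614-86705680, minus strand: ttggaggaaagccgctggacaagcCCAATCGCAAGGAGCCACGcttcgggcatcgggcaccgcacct
Hsp90b1, chr10:86705509-86705575, minus strand: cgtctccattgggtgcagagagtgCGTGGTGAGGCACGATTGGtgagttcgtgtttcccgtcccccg
Calr, chr8:84847051-84847117, minus strand: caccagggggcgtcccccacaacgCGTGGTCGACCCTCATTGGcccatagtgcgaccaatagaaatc
Canx, chr11:50325776-50325842, minus strand: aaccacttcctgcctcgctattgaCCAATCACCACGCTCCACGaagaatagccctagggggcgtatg
Pdia6, chr12:17266467-17266533, plus strand: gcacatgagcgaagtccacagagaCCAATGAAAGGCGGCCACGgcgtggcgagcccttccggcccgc
Dnajc3, chr14:118937803-118937869, plus strand: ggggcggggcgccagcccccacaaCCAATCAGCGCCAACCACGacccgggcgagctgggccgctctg
Creld2, chr15:88819496-88819562, plus strand: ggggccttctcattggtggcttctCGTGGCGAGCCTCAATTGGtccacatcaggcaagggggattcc
Syvn1, chr19:6046508-6046574, plus strand: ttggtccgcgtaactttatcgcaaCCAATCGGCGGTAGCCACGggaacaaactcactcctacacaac

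In Hspa5 the match spans positions -65 to -47 from the gene's start, and in the other genes it begins between -212 (Hsp90b1) and -44 (Syvn1). A second form of the element, ATTGG and CCACG with any 1 base between them, was searched in the same way. It was found in 0.0365% of all windows, in 12 of the 27025 genes and in 2 of the 32. One of these 2 was Herpud1, the gene with the smallest p of the group, and its stretch is shown for that reason.
Herpud1, chr8:94386353-94386411, plus strand: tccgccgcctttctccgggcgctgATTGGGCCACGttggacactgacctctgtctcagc
The other was Dnajb11. The XBP1-type core TGACGTGG was found in 1 of the 32 genes, Vcp, in 193 of the 27025 genes and in 0.676% of all windows. These matches describe the letters in the windows and are not evidence of binding in these cells.

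The libraries held between 11648710 and 16224818 counts. Dhps itself was at 24.1, 20.9 and 23.4 normalized CPM (counts per 1000000 counts of the library) in control libraries 1 to 3 and at 13.2, 13.6 and 18.3 CPM in knockout libraries 1 to 3. All 3 knockout libraries were below all 3 controls, though Dhps missed the threshold (log2 fold change -0.59, SE 0.14, adjusted p = 0.214), and the deleted exons are not given in the sources used here. Among macrophage genes, Adgre1 (1241 to 1567 CPM) and Csf1r (918 to 1143 CPM) were abundant in all 6 libraries. Of the 10 macrophage markers measured 1 was called, against 0.104% of all genes tested. It was the lysozyme gene Lyz2, which fell from a mean of 18039 to 8765 CPM (edgeR adjusted p = 7.2e-05). Fcgr1, C1qa and Adgre1 were lower without overlap and were not called. Over all genes tested, 5.45% were lower and 5.73% higher without overlap. The summed level of the macrophage list was 22256 to 24910 CPM in control and 13188 to 15424 CPM in knockout libraries, and most of it is Lyz2. The median log2 fold change of the 10 markers was -0.12, with 3 above 0 and 7 below. Of the 11 neutrophil and precursor markers measured, 5 were called higher in the knockout, against 0.104% of all genes called in either direction. Camp, Mpo and Prtn3 were higher without overlap and not called. Mmp8 (log2 fold change -0.02), Csf3r (0.19) and Elane (0.38) overlapped. The summed level of the 11 was 407 to 513 CPM in control and 711 to 889 CPM in knockout libraries. Of 5 measured stromal markers 3 were called higher (summed 10.5 to 12.9 against 19.1 to 25.1 CPM), while Pdgfrb (0.02) and Postn (0.41) overlapped. The B and plasma cell markers (3 of 11 measured, 294 to 405 against 359 to 392 CPM) had no member called. Their sum is nearly all Sdc1 (292 to 404 against 355 to 388 CPM). Jchain was at 0.14 to 2.96 and Cd79b at 0.35 to 1.47 CPM across the 6 libraries. The 3 log2 fold changes were above 0, from 0.12 (Sdc1) to 1.46 (Jchain). The mast cell and basophil markers (4 of 8, 2.0 to 4.44 against 5.36 to 7.79 CPM) had no member called either. Mcpt8 (2.00) and Prss34 (1.70) were higher without overlap, while Kit (0.11) and Cpa3 (-0.11) overlapped. None of the 6 megakaryocyte markers was called, and their sum (1422 to 1714 against 1196 to 1329 CPM) is mostly Pf4 (log2 fold change -0.29). The estimates of the other 5 were above 0, from 0.53 (Gp1ba) to 1.54 (Tubb1), and 4 of them were higher without overlap. No measured marker was at 0 in any library. The part of such cells in the values below was not tested, and in bulk RNA fewer cells of a type and less RNA per cell cannot be told apart.

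No change of any of the 40 ER genes between genotypes passed the test. The quasi-likelihood test of edgeR called 0 of 40 at an adjusted p under 0.05, against 0.104% of all genes tested, and the smallest adjusted p was 0.696 (Herpud1). DESeq2 and limma-voom also called 0 of 40, against 0.209% and 0.0758% of all genes. With the replicate number as a block, and at an adjusted p under 0.1, edgeR called 0 of 40 as well, against 0.332% and 0.114% of all genes. At an unadjusted p under 0.05 there was 1 of 40, Herpud1, where 6.48% of all genes lay below that level. The log2 fold changes of the 40 genes, knockout relative to control, ran from -0.18 (Sec11a) to 0.30 (Herpud1). They were above 0 for 17 and below 0 for 23, with a median of -0.0052, beside -0.0044 over all genes tested.

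The libraries set narrow limits on a change in these genes. For 39 of the 40 the 95% interval of the fold change, not adjusted for the number of genes, lay within 1.5-fold in either direction. That was so for 71.9% of all genes tested, and for 93.9% of the 7436 genes whose average level was at least that of the lowest ER gene. The exception was Dnajb9, the least abundant of the 40 per exon length, with an interval from 0.925-fold to 1.51-fold. The interval of Herpud1 was the only one that left out no change (1.03-fold to 1.48-fold).

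**Figure D1:**
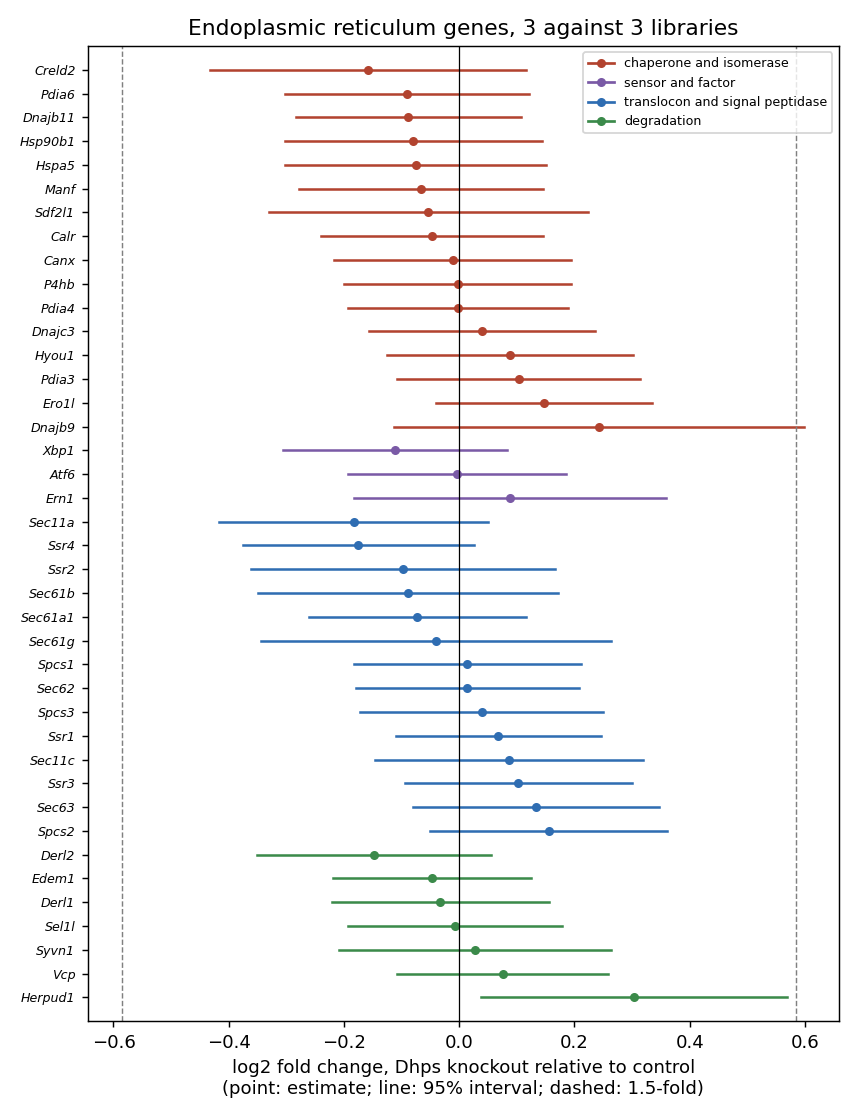
Log2 fold change of the 40 genes, Dhps knockout relative to control (x axis; points are edgeR estimates from 3 against 3 libraries, lines are 95% intervals), by class. Estimates run from -0.18 to 0.30, and 39 of 40 intervals stay inside the dashed lines at 1.5-fold.

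Levels are compared between genes per exon length. Hspa5, which encodes BiP, the main chaperone of the lumen, was the most abundant at 292 CPM per kilobase of exon, as the mean of the 6 libraries. The lectin chaperone and calcium store calreticulin (Calr, 265), the isomerase P4hb (180.1), the lumenal Hsp90 Hsp90b1 (139.9) and the membrane lectin chaperone Canx (103) followed. The translocon and signal peptidase genes lay between 13.0 (Sec63) and 76.3 CPM per kilobase (Ssr3), and the degradation genes between 7.45 (Syvn1) and 65.5 (Vcp). The sensor gene Ern1 (4.94) and the co-chaperone gene Dnajb9 (3.99) were lowest. The means of both genotypes fell along the line of equal levels throughout this range.

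**Figure D2:**
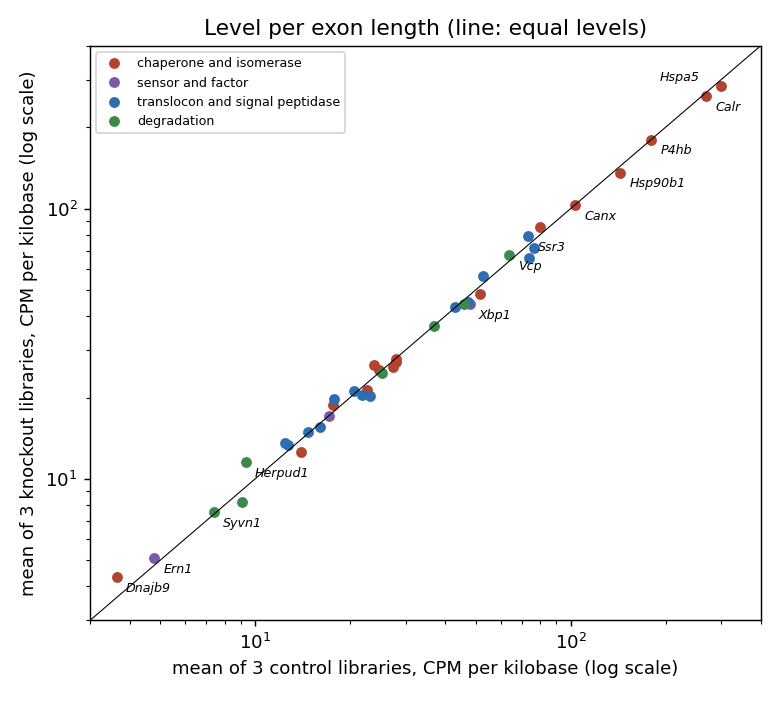
Mean level of each of the 40 genes in control (x axis) and Dhps knockout libraries (y axis), in CPM per kilobase of exon on log scales. The points follow the line of equal levels from Dnajb9 (mean of all libraries 3.99) to Hspa5 (292).

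Among the chaperones, Hspa5 was at 827, 724 and 802 CPM in control libraries 1 to 3 and at 610.2, 798 and 824 CPM in knockout libraries 1 to 3. Knockout library 1 was the lowest of all 6, while the other 2 knockout libraries lay within the control range. The difference was smaller than the spread (log2 fold change -0.08, SE 0.11, adjusted p = 0.961), and without knockout library 1 it had the opposite sign (0.05, adjusted p = 0.962). Calr was at 563, 470.0 and 534 CPM in control and at 469.9, 523 and 524 CPM in knockout libraries. The groups overlapped (-0.05, SE 0.09, adjusted p = 0.976), and here too the sign turned without knockout library 1 (0.0074) or control library 1 (0.011). Hspa5 lies at bases 34772090 to 34776529 of chromosome 2 and Calr at 84842088 to 84846931 of chromosome 8 (mm10), and none of their exonic bases is shared with another annotated gene.

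Dnajb9 encodes ERdj4, a co-chaperone of BiP that also takes part in degradation. It was at 6.85, 7.39 and 6.17 CPM in control and at 7.63, 8.21 and 8.40 CPM in knockout libraries. All 3 knockout libraries were above all 3 controls, by a small margin (log2 fold change 0.24, SE 0.17, adjusted p = 0.876). Creld2, which encodes a secreted ER stress protein with isomerase activity, was at 20.8, 20.6 and 16.0 CPM in control and at 17.5, 17.1 and 17.0 CPM in knockout libraries. Control libraries 1 and 2 were high and control library 3 was below all the knockouts (-0.16, SE 0.13, adjusted p = 0.908). The co-chaperones Dnajb11 and Dnajc3, the large chaperone Hyou1, the BiP cofactor Sdf2l1, the stress-induced factor Manf and the chaperones Hsp90b1 and Canx had log2 fold changes between -0.09 and 0.09, and their groups overlapped.

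Disulfide bonds are made by the isomerases of the PDI family, which are reoxidised by Ero1l. Ero1l was at 106, 99.2 and 112 CPM in control and at 120.5, 118 and 113 CPM in knockout libraries. The 3 knockout libraries were above the 3 controls, the closest pair being control library 3 and knockout library 3 (0.15, SE 0.089, adjusted p = 0.861). Pdia3, the isomerase that works with calreticulin and calnexin on glycoproteins, was at 219, 196 and 218 CPM in control and at 195, 251 and 234 CPM in knockout libraries. Its groups overlapped because knockout library 1 was the lowest of all 6 (0.10, SE 0.10, adjusted p = 0.922). P4hb (-0.0029), Pdia4 (-0.0023) and Pdia6 (-0.09) completed the isomerases. Pdia4 was even across libraries, at 66.0 to 70.9 CPM.

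Of the 16 chaperone and isomerase genes 5 had a log2 fold change above 0 and 11 below, with a median of -0.029. Their summed level was 3242 to 3653 CPM in control and at 3050.0 to 3669 CPM in knockout libraries, so that the knockout range enclosed that of the controls.

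None of the sensors or the transcription factor had groups that stood apart. Xbp1, whose mRNA is spliced by IRE1 to yield an active transcription factor, was at 98.4, 116 and 109 CPM in control and at 99.0, 96.9 and 103 CPM in knockout libraries. Control library 1 was among the knockouts, so the groups overlapped (-0.11, SE 0.092, adjusted p = 0.908). Counts per gene do not separate spliced from unspliced Xbp1. Ern1, the gene of IRE1, was at 19.3, 16.7 and 21.2 CPM in control and at 19.9, 22.2 and 18.7 CPM in knockout libraries, with overlap (0.09, SE 0.13, adjusted p = 0.962). Atf6, the sensor that is cut in the Golgi to release a transcription factor, was at 137, 125 and 123 CPM in control and at 133, 131 and 120.2 CPM in knockout libraries. Its estimate was close to 0 (-0.0037, SE 0.089, adjusted p = 0.999), and its sign turned to 0.0039 with upper quartile size factors and to 0.021 with no size factors.

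In the translocon and signal peptidase class, 8 genes were above 0 and 6 below, with a median of 0.014. The Sec61 channel genes Sec61a1, Sec61b and Sec61g had log2 fold changes of -0.07, -0.09 and -0.04. Sec61b was at 34.0, 44.2 and 48.2 CPM in control and at 37.3, 43.5 and 37.9 CPM in knockout libraries, and control libraries 1 and 3 were the extremes of all 6 (adjusted p = 0.961). Sec63, which couples the channel to BiP, was at 73.7, 70.3 and 80.9 CPM in control and at 73.9, 90.5 and 82.2 CPM in knockout libraries, and the groups overlapped through knockout library 1 (0.13, SE 0.10, adjusted p = 0.899). Sec62, its partner in post-translational import, had an estimate of 0.01.

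The translocon-associated protein (TRAP) complex, which helps chains into the channel, had no subunit gene called. Ssr4 was at 62.4, 58.9 and 57.0 CPM in control and at 49.7, 56.3 and 52.2 CPM in knockout libraries, with all knockouts below all controls (-0.17, SE 0.095, adjusted p = 0.836). Ssr1 was at 118, 121 and 117 CPM in control and at 123.2, 127 and 123.1 CPM in knockout libraries, with all knockouts above all controls (0.07, SE 0.084, adjusted p = 0.946). Ssr3, the most abundant translocon-class gene per length, was at 196, 228 and 213 CPM in control and at 208, 248 and 228 CPM in knockout libraries, which overlapped (0.10, SE 0.093, adjusted p = 0.911). Ssr2 had an estimate of -0.10, and knockout library 1 was its lowest. None of these differences passed the threshold, and the difference between subunits was not tested.

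The signal peptidase removes the signal peptide, and none of its subunit genes was called. Spcs2, an accessory subunit, was at 50.5, 45.8 and 54.0 CPM in control and at 55.4, 57.6 and 54.1 CPM in knockout libraries (0.15, SE 0.097, adjusted p = 0.861). Control library 3 and knockout library 3 nearly met, so the groups stayed apart only narrowly. Sec11a, a catalytic subunit, was at 26.3, 26.8 and 23.9 CPM in control and at 23.1, 21.3 and 23.5 CPM in knockout libraries, all knockouts below all controls (-0.18, SE 0.11, adjusted p = 0.861). Its alternative catalytic subunit Sec11c (0.09) and the accessory subunits Spcs1 (0.01) and Spcs3 (0.04) overlapped between groups.

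Among the degradation genes, Herpud1 encodes a membrane protein that organises the Hrd1 ubiquitin ligase complex and is a known target of the unfolded protein response. It was at 16.5, 16.1 and 20.0 CPM in control and at 21.1, 23.1 and 20.5 CPM in knockout libraries, or 17.5 ± 2.16 and 21.6 ± 1.34 CPM (SD, n = 3 each). The 3 knockout libraries were above the 3 controls, though control library 3 and knockout library 3 were close. Its log2 fold change of 0.30 (SE 0.13, unadjusted p = 0.027, adjusted p = 0.696) was the highest of the 40, and it was between 0.25 and 0.41 over the 14 other settings and left-out libraries, with adjusted p from 0.450 to 0.989. Herpud1 spans bases 94386500 to 94395358 of chromosome 8 on the plus strand in mm10.

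Derl2, a derlin of the retrotranslocation channel, was at 36.5, 39.0 and 37.9 CPM in control and at 34.6, 33.6 and 34.1 CPM in knockout libraries. All knockouts were below all controls (-0.15, SE 0.096, adjusted p = 0.870). Edem1, a mannosidase-like protein that picks misfolded glycoproteins, was at 260.3, 276 and 268 CPM in control and at 254, 259 and 266 CPM in knockout libraries, which overlapped at control library 1 and knockout library 3 (-0.05, SE 0.081, adjusted p = 0.969). Vcp, the ATPase that pulls chains out of the membrane, was at 222, 195 and 218 CPM in control and at 229.9, 213 and 225 CPM in knockout libraries, which also overlapped (0.08, SE 0.087, adjusted p = 0.940). The ligase gene Syvn1 (0.03), its partner Sel1l (-0.0068) and Derl1 (-0.03) had estimates near 0. The class had 3 genes above 0 and 4 below, with a median of -0.0068.

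In 8 of the 40 genes (20.0%) the 3 knockout values and the 3 control values did not overlap, against 11.2% of all genes tested. The 5 that were higher were Dnajb9, Ero1l, Ssr1, Spcs2 and Herpud1, against 5.73% of all genes, and the 3 that were lower were Ssr4, Sec11a and Derl2, against 5.45%. They came from 3 of the 4 classes (2 of 16 chaperone and isomerase genes, 4 of 14 translocon and signal peptidase genes, 2 of 7 degradation genes), and none of the 8 passed the threshold.

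**Figure D3:**
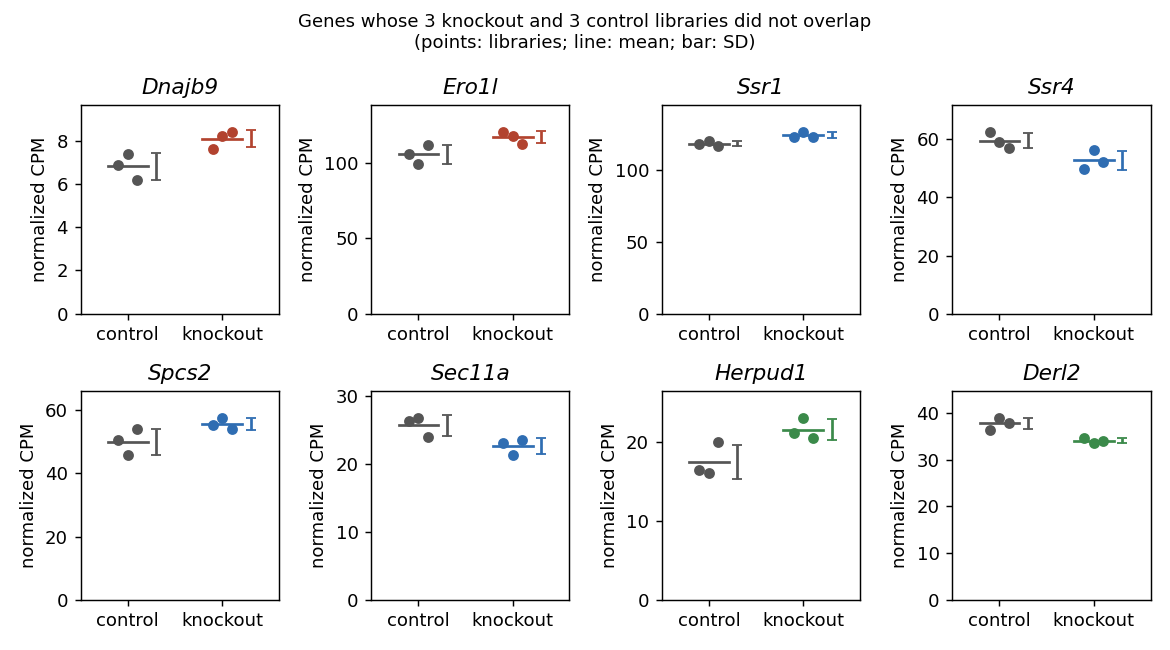
Normalized CPM in each library (points; lines are means, bars are SD, n = 3) for the 8 genes whose knockout and control values did not overlap. The axes start at 0, and 5 genes lie higher and 3 lower in the knockout, Herpud1 with 17.5 against 21.6 CPM on average.

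Chaperones and isomerases were then set against the translocon and degradation genes within each library. The mean log2 CPM of the 16 chaperone and isomerase genes exceeded that of the 21 translocon and degradation genes by 0.98, 0.87 and 0.86 in control libraries 1 to 3 and by 0.85, 0.91 and 0.92 in knockout libraries 1 to 3. The ranges overlapped. The group means were 0.90 ± 0.067 and 0.89 ± 0.041 (SD, n = 3 each), so that the balance of the classes differed by -0.0092 between genotypes, less than either SD. With medians over genes in place of means the difference had the opposite sign (0.085). The SDs above are those of the means and do not measure the spread of the medians. By medians the libraries were at 0.95, 0.76 and 0.94 in control and at 0.91, 0.96 and 1.04 in knockout, and the groups overlapped. By medians control library 2 was the lowest (0.76, against 0.91 to 1.04 in the other libraries), and the difference was 0.022 without it and 0.049 without knockout library 3.

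The chaperones differed between libraries of 1 genotype, and both genotypes had a low library. Deviations were taken as log2 CPM minus the gene's mean over the 6 libraries. Of the 16 chaperone and isomerase genes, 12 were below their own mean in knockout library 1 and 13 in control library 2. Of all 10551 genes, 5187 and 5209 were below. The low values were not confined to this class. In knockout library 1, 10 of 14 translocon and signal peptidase genes (mean -0.067) and 4 of 7 degradation genes (mean 0.0045) were below. In control library 2 the counts were 6 of 14 (0.0033) and 5 of 7 (-0.069). The mean of the chaperone and isomerase class ran from -0.095 in knockout library 1 to 0.072 in control library 1 (-0.053 in control library 2). Knockout library 1 was the lowest of the 6 for 8 of the 16 (50.0%), against 19.4% of all genes. Hsp90b1 ranged from 313 CPM in knockout library 1 to 427 CPM in knockout library 2, a ratio of 1.36 within 1 genotype. Hspa5 in knockout library 1 was at 0.752 of the mean of the other 2 knockout libraries.

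**Figure D4:**
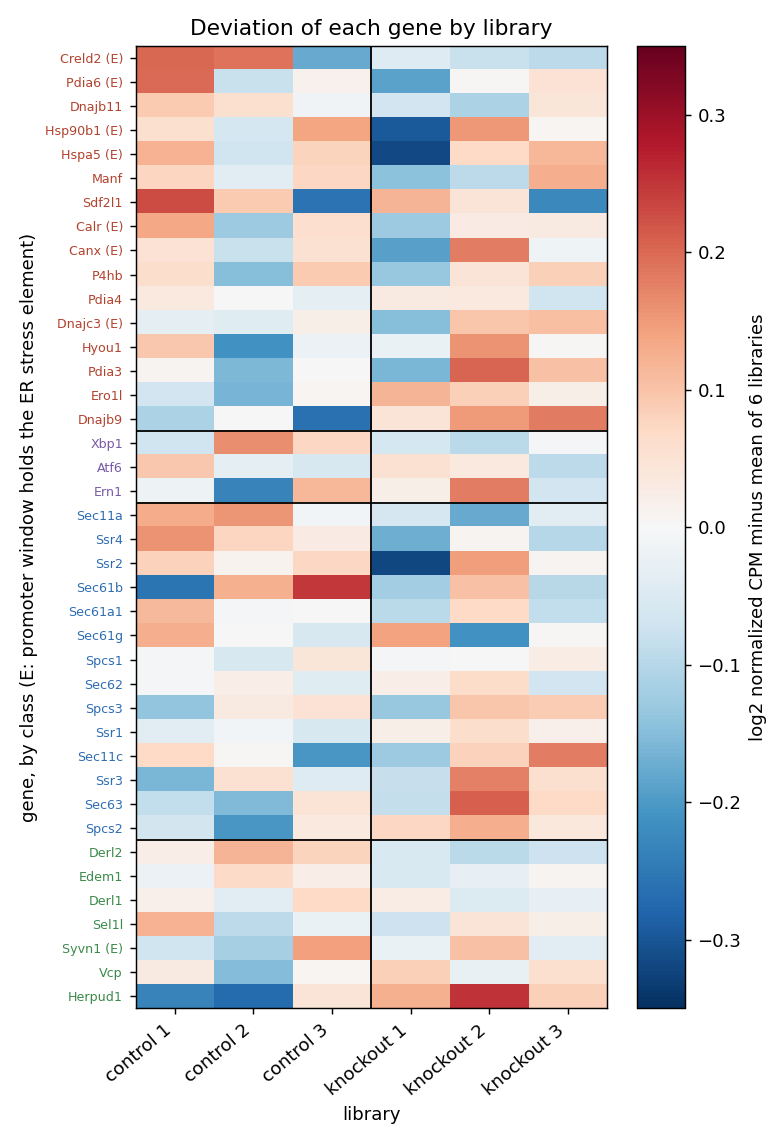
Log2 normalized CPM minus the mean of the 6 libraries for each of the 40 genes (rows, by class) in each library (columns; red higher, blue lower; E marks genes with the ER stress response element). The deepest blue in the chaperone block is Hspa5 in knockout library 1, and no class changes colour as a whole at the line between genotypes.

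The genes were then sorted by the promoter element printed above, after the pattern by library had been seen, so the values that follow are a description. The 8 genes with the element (Hspa5, Hsp90b1, Calr, Canx, Pdia6, Dnajc3, Creld2 and Syvn1) were on average 0.17 below their own means in knockout library 1, with 8 of 8 below and 6 of 8 at their lowest of the 6 libraries. Creld2 and Syvn1 were the other two, lowest in control libraries 3 and 2. The 24 genes whose window lacks this form of the element were 0.014 below on average in that library, with 3 of 24 at their lowest. They include Herpud1 and Dnajb11, which carry the second form and were at 0.12 and -0.067 there, and the 22 genes with neither form averaged -0.018. Single genes crossed this division. Among chaperones and isomerases without the element, Pdia3 (-0.16) and P4hb (-0.13) were as low in knockout library 1 as Calr with it (-0.13), while Sdf2l1 and Ero1l were at 0.12. The lowest deviation of all 40 genes in that library was that of Ssr2 (-0.32), which had no promoter entry. Within the chaperone and isomerase class, the 7 genes with the element averaged -0.19 and the 7 without it -0.0069 in knockout library 1, and 0.10 and 0.036 in control library 1. The averages lay close together in control library 2 (-0.038 with and -0.046 without), knockout library 2 (0.064 and 0.065) and knockout library 3 (0.029 and 0.020), and stood apart in control library 3 (0.027 and -0.067). By means the low values of control library 2 were thus shared by genes with and without the element. The medians there differed, at -0.071 with the element and -0.0022 without it. The split by element was also one by level. In the chaperone and isomerase class the mean log2 CPM by library was 7.51 to 7.80 with the element and 6.14 to 6.27 without. Creld2 and Syvn1, the least abundant of the 8 genes with it, were at -0.044 and -0.023 in knockout library 1. The parts of element and level in the pattern were not tested. Abundant genes in general were low in knockout library 1, though to a smaller degree than the 8 genes on average. Of the 1686 genes with a mean of at least 100 CPM, 28.5% had their lowest value there, with an average deviation of -0.030. Between genotypes the median log2 fold change was -0.061 for the 8 genes and 0.0059 for the 24 others, and no gene of either set was called.

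**Figure D5:**
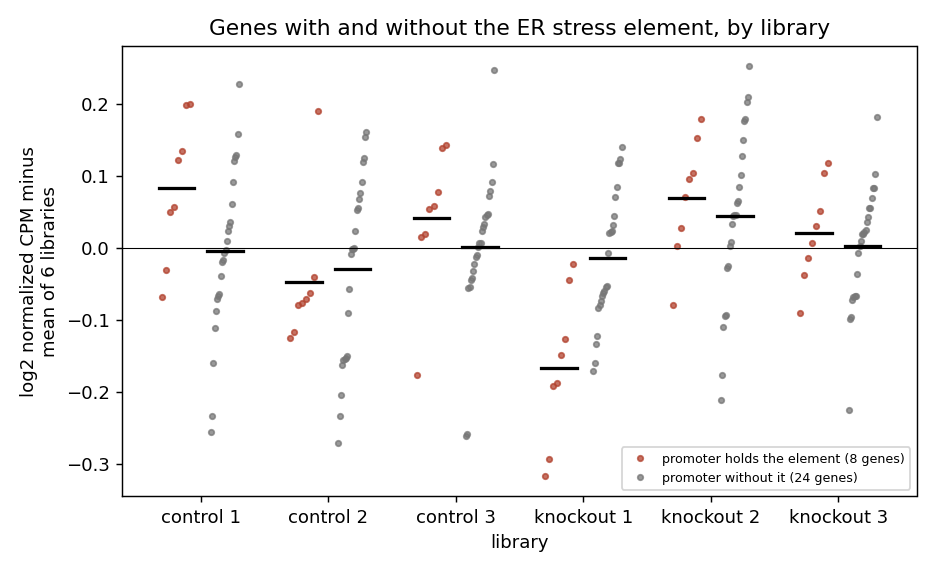
Log2 normalized CPM minus the mean of the 6 libraries (y axis) by library (x axis) for the 8 genes whose promoter window holds the ER stress response element and the 24 whose window does not (points are genes, bars are means). In knockout library 1 all 8 genes lie below 0, with a mean of -0.17, while the mean of the 24 is -0.014, and in knockout library 2 both means are above 0 (0.069 and 0.044).

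Other genes of the same pathways were read from 5 further lists, of which 126 of 140 genes were measured. edgeR, DESeq2 and limma-voom called none of them, against 0.104%, 0.209% and 0.0758% of all genes. At an unadjusted p under 0.05 in edgeR there were 4 of 126, where 6.48% of all genes lay below that level. Their median log2 fold change was -0.029, with 47 above 0 and 79 below. Over all genes tested the median was -0.0044, with 5143 above 0 and 5408 below. In 11 of the 126 (8.73%) the groups did not overlap, against 11.2% of all genes. Of these 3 were higher and 8 lower in the knockout, where 5.73% of all genes were higher and 5.45% lower.

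Of 29 folding and glycoprotein quality control genes, 9 were above 0 and 20 below (median -0.045), the smallest p belonging to Cnpy3 (-0.22, adjusted p = 0.861), Sil1 (-0.18) and Txndc11 (-0.19). Of 32 genes of targeting and N-glycosylation, 12 were above 0 and 20 below (median -0.045). In that list Srp19, a protein of the signal recognition particle, was at 15.3, 13.1 and 13.7 CPM in control and at 12.1, 10.9 and 11.3 CPM in knockout libraries, without overlap (-0.29, adjusted p = 0.749). Srp14 of the same particle had an estimate of -0.16 and Sec61a2 of 0.65, the latter high in knockout library 3 alone (4.11 CPM against 1.35 to 1.83 CPM in the other libraries).

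Of 24 further degradation genes, 8 were above 0 and 16 below (median -0.028). Os9, the lectin that hands misfolded glycoproteins to the Hrd1 complex, was at 176, 145 and 141 CPM in control and at 124, 132 and 129 CPM in knockout libraries. All knockouts were below all controls (-0.26, SE 0.098, adjusted p = 0.627). Rnf185 (-0.25) and Edem2 (-0.13) came next by p. Of 26 genes of vesicle export and retrieval, 11 were above 0 and 15 below (median -0.0095). Sec24a, a cargo adaptor of the COPII coat, was at 36.1, 37.5 and 36.2 CPM in control and at 42.9, 45.1 and 43.7 CPM in knockout libraries. These groups were well apart for their spread, with all knockouts higher (0.26, SE 0.094, adjusted p = 0.602), followed by Tmed10 (0.15) and Sec23a (-0.19).

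The stress signalling list, which holds the PERK branch, had 7 of 15 genes above 0 and 8 below (median -0.0073). Trib3, a pseudokinase gene induced by ATF4 and CHOP, was near the lowest level the table holds. It was at 0.714, 1.35 and 0.870 CPM in control and at 3.09, 1.94 and 1.23 CPM in knockout libraries, and knockout library 3 was within the controls (1.06, SE 0.41, adjusted p = 0.663). Atf4 itself was at 149, 173 and 160 CPM in control and at 154, 126 and 138 CPM in knockout libraries, the opposite direction with overlap (-0.20, SE 0.097, adjusted p = 0.780). Mbtps1, a protease that cuts ATF6, had an estimate of -0.16.

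For 12 of the 40 genes, part of the deposited exonic bases is also exonic in another GENCODE gene of that build. The share was largest for Spcs1 (24.5%, with Glt8d1 on the opposite strand), Hsp90b1 (22.0%) and Sec61a1 (18.0%). Strand use in counting is not given in the sources used here, so reads from stretches shared with the opposite strand could belong to either gene. Hsp90b1 (with Gm15344 and Gm25745), Manf (with Rbm15b) and Pdia4 (with Mir704) also share bases with genes on their own strand. Strand use would not separate those reads.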

How the data were processed

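RNA-seq counts from 3 control and 3 Dhps knockout libraries were analysed. The authors deposited raw counts per gene, whole numbers without normalization, with exon coordinates (mm10) and a summed exon length, which is another kind of value and served for levels per kilobase. Per the submitters' processing notes the tools were STAR 2.4.2a, featureCounts, Subread 1.5.0 and edgeR, with no role given. The annotation, strand use and treatment of reads with several positions are not given in the sources used here. In every gene the third highest library exceeded 1 CPM, so the deposited table looks filtered at that floor.

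Library sizes were scaled by TMM, and filterByExpr (minimum count 10) removed 0 genes. edgeR 4.0.16 (R 4.3.3) tested genotype by quasi-likelihood, two-sided, with Benjamini-Hochberg adjustment over all 10551 genes and a call at an adjusted p under 0.05. The SE is the size of the log2 fold change divided by the square root of F. Alternatives were other size factors and filters, DESeq2 1.42.0, limma-voom 3.58.1, a replicate block, an adjusted p under 0.1 and each library left out. On simulated data for this comparison, over all genes, the test found 35 of 67 genes with a 1.5-fold change, 60 of 67 with 2-fold and 63 of 66 with 3-fold.

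The members, classes and lists were chosen with earlier results of these data known, and the promoter motifs after the values were seen. Values per library are given for Dhps, for the sensors and Xbp1, in each other class for the 2 genes highest per kilobase and the 4 with the smallest p, and for every gene without overlap. In each further list the 3 genes with the smallest p are named. Other genes were named to complete their complex. Promoter windows are from RefSeq (GRCm38.p6), with Ero1l matched as a synonym. Hyou1, Manf, Atf6, Sec61a1, Ssr2, Spcs3, Sec11c and Derl1 were not matched.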

Additional observations from a re-analysis of the deposited data

How the results depend on the processing

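No ER gene, of the 40 or of the 126 others, was called under any of the 14 alternatives or at an adjusted p under 0.1. Of the 14, the fit with no filter repeats the main fit, since the filter removed 0 genes. The number of genes called in the whole table went from 11 to 22 with DESeq2 and 35 with the replicate block. It was 4, 7 and 19 without control libraries 2, 3 and 1. With the replicate number as a block the smallest adjusted p of the 40 was 0.450, and that of the 126 was 0.353. The numbers do not pair the libraries by the labels, and deviations of same-numbered libraries correlated at 0.14, 0.019 and 0.15 across genes. Those of numbers 1 and 3 were the highest of all pairs, and pairs of unlike number ran from -0.18 to 0.055. Control library 2 correlated best with knockout library 1 (0.030) and not with its own number. Whether the libraries were paired was not tested.

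The balance of chaperones against translocon and degradation genes was 0.085 with medians in place of means, against -0.0092, and with means it ran from -0.029 to 0.029 with 1 library left out. With medians, an alternative chosen after seeing the data, it was 0.12, 0.022 and 0.11 without control libraries 1, 2 and 3 and 0.11, 0.091 and 0.049 without knockout libraries 1, 2 and 3. The cause was not tested. Of the 20 genes described by library, 16 kept the sign of their log2 fold change under all 14 alternatives. Atf6 turned to 0.0039 with upper quartile factors and 0.021 with no size factors, and ran from -0.032 to 0.044 with 1 library left out. With 1 library left out, Hspa5 ran from -0.15 to 0.053, Calr from -0.11 to 0.011 and Sec61b from -0.22 to 0.015. Class medians stayed between -0.060 and 0.046 with 1 library left out. Dnajb9 (SE 0.17) and Sec61g (SE 0.14) reached no more than 8.40 and 13.5 CPM in any library, and the part of depth in their errors was not tested.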
